A study of Homo sapiens with 8 samples.

Results

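The genes described here are the aminoacyl-tRNA synthetases and the scaffold proteins of the multisynthetase complex. They were taken from a list of 39 gene symbols, and all 39 were present among the 23368 symbols of the count table under their older names. Of these, 20 encode cytosolic enzymes or enzyme subunits, 16 encode mitochondrial enzymes, and 3 (AIMP1, AIMP2 and EEF1E1) encode scaffolds. GARS and KARS, which encode both the cytosolic and the mitochondrial enzyme, were counted with the cytosolic genes. All 39 passed the filter on low counts, as did 15254 symbols in all.

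RNA sequencing compared HEK293F cells, a widely used line of embryonic kidney origin, at raised, lowered and unaltered levels of the RNA helicase MOV10. In the overexpression group (3 libraries, numbered 1 to 3) the cells received a plasmid for myc-tagged MOV10 a single time. In the knockdown group (2 libraries, numbered 2 and 3) an siRNA against MOV10 was given 3 times, 24 h apart, and the control group (3 libraries, numbered 1 to 3) received an irrelevant siRNA on the same schedule. The overexpression cells thus differed from control cells in plasmid delivery and in the absence of siRNA as well as in MOV10, and these cannot be told apart, as an empty-plasmid library is not analysed here. The labels do not state that replicate libraries were grown as separate cultures. The p-values therefore reflect the scatter among the sequenced libraries alone, which could be technical. The shallowest library held 12.7 M counted reads and the deepest 32.8 M. MOV10 stood at 2971, 2916 and 2454 CPM in the overexpression libraries, 50.6 and 55.5 CPM in the knockdown libraries and 76.8, 76.4 and 91.2 CPM in the control libraries, where CPM is the count per 1 M reads of the TMM-scaled library size. Its log2 fold change was 5.10 ± 0.08 with overexpression (adjusted p = 2.1e-21) and -0.62 ± 0.08 with knockdown (adjusted p = 8.84e-06), so every library matched its label. All 8 markers listed for HEK293 cells were detected in every library, at 7.44 to 1095 CPM. Of 13 markers of other cell types, 9 stayed under 1 CPM in every library, KRT5 was at 0, and COL1A1 and LRP2 gave most of the sum. That sum was 107 to 112 CPM in the overexpression libraries, 77.7 to 84.8 CPM in the knockdown libraries and 91.8 to 97.0 CPM in the control libraries. The part of these markers in the results was not tested.

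Each aminoacyl-tRNA synthetase joins an amino acid to the tRNAs that read its codons, the step at which the genetic code is set. Human cells keep separate enzymes for the cytosol and for the mitochondrion, and the mitochondrial ones are encoded in the nucleus and imported. Several cytosolic enzymes sit in a large complex held together by AIMP1, AIMP2 and EEF1E1, while the others are free. Many cytosolic synthetase genes are known targets of ATF4, the transcription factor of the amino acid response, which binds with C/EBP partners to a composite element written here as TGATGNAAN.

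Promoters are shown first because several of the cytosolic genes carry this element close to their start site. RefSeq promoter windows (GRCh38.p14, from 250 bases before to 50 bases after each start site) were available for 33 of the 39 genes, 16 cytosolic, 14 mitochondrial and 3 scaffold. The other 6 were DARS, LARS, VARS, YARS, AARS2 and VARS2. The letters TGATGNAAN, searched on both strands, occurred in 7 of the 16 cytosolic genes and in 1 of the 14 mitochondrial genes, YARS2. They were found in 3.61% of all 35116 promoters and 4.45% of the 27305 genes with a promoter. The 8 windows are printed 5′ to 3′ on the strand of the gene, with 20 bases on each side and the matched letters in capitals. NARS and YARS2 carry the motif on the strand of the gene, and the other 6 carry its reverse complement there.
AARS, chr16:70289666-70289714, minus strand: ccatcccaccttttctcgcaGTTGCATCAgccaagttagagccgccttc
CARS, chr11:3057398-3057446, minus strand: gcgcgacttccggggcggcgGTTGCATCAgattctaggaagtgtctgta
GARS, chr7:30594824-30594872, plus strand: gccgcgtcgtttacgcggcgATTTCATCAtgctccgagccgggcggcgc
IARS, chr9:92293683-92293731, minus strand: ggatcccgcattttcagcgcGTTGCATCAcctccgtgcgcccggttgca
MARS, chr12:57488043-57488091, plus strand: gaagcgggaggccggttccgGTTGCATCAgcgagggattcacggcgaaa
NARS, chr18:57621794-57621842, minus strand: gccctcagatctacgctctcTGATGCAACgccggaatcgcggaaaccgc
TARS, chr5:33440946-33440994, plus strand: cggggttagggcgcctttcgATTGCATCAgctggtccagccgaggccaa
YARS2, chr12:32756066-32756114, minus strand: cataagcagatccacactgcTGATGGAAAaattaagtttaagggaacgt
Except in AARS and YARS2, where the match began 188 and 197 bases before the start site, the first matched base lay within 34 bases of it. The word TGATGCAAC was shared by AARS, CARS, IARS, MARS and NARS. Such a match is a description of the letters and does not show a bound site.

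The promoter of QARS, the glutaminyl enzyme, is shown because QARS had the largest response of all members to overexpression. Its window (chr3:49104708-49105007, minus strand, 5′ to 3′) held neither TGATGNAAN nor CACGTG, the E-box bound by MYC with MAX among others.
QARS: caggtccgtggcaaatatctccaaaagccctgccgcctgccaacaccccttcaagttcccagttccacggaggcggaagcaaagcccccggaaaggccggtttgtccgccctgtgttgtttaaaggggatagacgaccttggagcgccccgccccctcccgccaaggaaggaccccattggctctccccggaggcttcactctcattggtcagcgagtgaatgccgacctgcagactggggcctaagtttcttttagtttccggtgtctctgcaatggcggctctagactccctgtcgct
CACGTG was found in IARS, CARS2, EARS2, MARS2 and AIMP2, against 8.77% of all genes.

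HARS and HARS2, the cytosolic and mitochondrial histidyl enzymes, lie head to head with start sites 85 bases apart, so their promoter windows share 184 bases. The HARS2 window (chr5:140691205-140691504, plus strand, 5′ to 3′) is printed with the shared bases in capitals, because HARS passed the test with knockdown and HARS2 did not.
HARS2: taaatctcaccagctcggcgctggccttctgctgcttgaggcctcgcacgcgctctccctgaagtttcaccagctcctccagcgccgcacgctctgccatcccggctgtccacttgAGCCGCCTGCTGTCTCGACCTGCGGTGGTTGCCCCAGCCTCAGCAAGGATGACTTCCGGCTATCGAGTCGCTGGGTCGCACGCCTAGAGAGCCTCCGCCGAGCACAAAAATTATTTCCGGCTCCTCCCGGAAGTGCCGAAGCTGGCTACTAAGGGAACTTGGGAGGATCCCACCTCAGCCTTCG
HARS had 114, 112 and 108 CPM in the overexpression libraries, 136 and 132 CPM in the knockdown libraries and 119.5, 115 and 111 CPM in the control libraries. HARS2 had 66.3, 65.4 and 70.6 CPM in the overexpression libraries, 71.4 and 67.4 CPM in the knockdown libraries and 70.3, 71.3 and 73.5 CPM in the control libraries. Both knockdown libraries lay above every control library for HARS, whereas for HARS2 the groups overlapped. With knockdown the log2 fold change was 0.22 ± 0.05 for HARS (adjusted p = 0.003, from edgeR's quasi-likelihood test, Benjamini-Hochberg adjusted, as for every adjusted p below) and -0.04 ± 0.06 for HARS2 (adjusted p = 0.594). The call for HARS was lost without knockdown replicate 2 (adjusted p = 0.0712), and the difference between both genes was not tested. The exons of HARS and HARS2 also overlap on opposite strands, over 14.2% of the exon length of HARS2. The strand setting of the counting is not given in the sources used here, so the sharing of reads between them is uncertain.

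In control cells cytosolic synthetase transcripts stood well above mitochondrial ones. Per kilobase of exon, the median level was 65.1 CPM per kb over the 20 cytosolic genes, 17.4 CPM per kb over the 16 mitochondrial genes and 26.8 CPM per kb over the scaffolds. The seryl enzyme SARS led with 147 ± 3.97 CPM per kb (SD, n = 3 control libraries). It was followed by the isoleucyl enzyme IARS at 131 ± 1.02, the threonyl enzyme TARS at 116 ± 2.78 and the tyrosyl enzyme YARS at 101 ± 1.46 CPM per kb, and each of these gaps exceeded the SD. At the low end the phenylalanyl enzyme FARS2 (5.97 ± 0.550 CPM per kb) and the prolyl enzyme PARS2 (6.00 ± 0.483 CPM per kb), both mitochondrial, did not differ beyond their spread. Of the 20 highest genes 16 were cytosolic. The highest mitochondrial gene, IARS2, reached 46.3 ± 3.39 CPM per kb, and the lowest cytosolic gene, CARS, 22.2 ± 0.161 CPM per kb. Of the 38 steps between neighbours in this order, 24 exceeded the SD and 14 did not. The SD covers the scatter among the 3 control libraries alone. It holds no uncertainty in the exon length by which each gene was divided. A gap above the SD therefore does not show that the order of neighbouring genes would hold with other exon lengths.

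**Figure D1:**
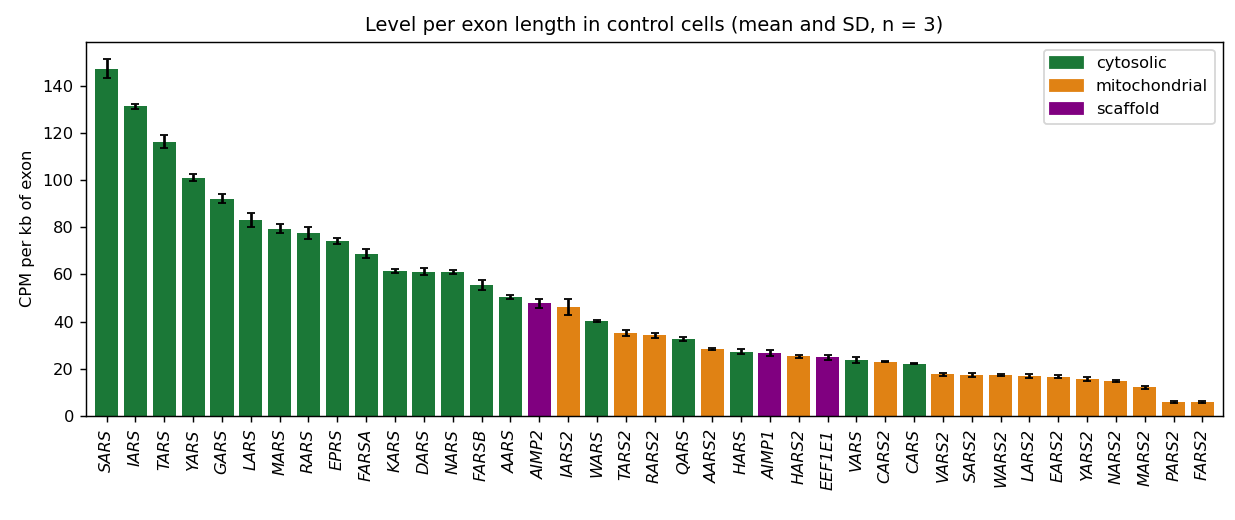
Level of each synthetase and scaffold gene in control cells, in CPM per kilobase of exon, ordered from high to low. Bars are means of 3 control libraries, whiskers are SDs, and colours mark cytosolic, mitochondrial and scaffold genes. Cytosolic enzymes fill 16 of the 20 highest places, and FARS2 and PARS2 stand lowest at about 6.00 CPM per kb.

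The cytosolic gene of an amino acid exceeded its mitochondrial counterpart in 12 of the 13 pairs that can be formed from the list, again per kilobase in control cells. The ratio ran from 8.43 for serine, 6.54 for methionine and 6.44 for tyrosine to 1.08 for histidine. In the cysteine pair the mitochondrial gene was slightly the higher one, at a ratio of 0.965. That order rests on the exon lengths used, 3123 bases for CARS and 1879 bases for CARS2. Before division by length CARS was the higher one, at a mean of 69.4 CPM in control libraries against 43.3 CPM for CARS2. No pair shared a stretch of 50 bases on the same strand of its annotated transcripts, and HARS and HARS2 alone shared such stretches on opposite strands.

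With overexpression, 8 of the 39 genes rose and 11 fell, which is 20.5% and 28.2% of them. Over all genes tested 25.2% rose and 24.1% fell, so the share of synthetase genes called was near that of genes in general. In 9 genes all overexpression libraries lay above every control library and in 11 below, and over all genes this was so for 28.5% and 27.5%. The median log2 fold change over the 39 genes was 0.00, against 0.01 over all genes. The genes that rose encode the cytosolic glutaminyl (QARS), cysteinyl (CARS), valyl (VARS), seryl (SARS) and alanyl (AARS) enzymes and the mitochondrial isoleucyl (IARS2), arginyl (RARS2) and valyl (VARS2) enzymes. Those that fell encode both subunits of the phenylalanyl enzyme (FARSA and FARSB), the lysyl, arginyl and tryptophanyl enzymes (KARS, RARS and WARS), 5 mitochondrial enzymes (AARS2, CARS2, EARS2, LARS2 and WARS2) and the scaffold AIMP2. With library totals in place of TMM scaling, 12 rose and 10 fell. In RNA from a whole culture, fewer cells that express a gene and less of its RNA per cell cannot be told apart.

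**Figure D2:**
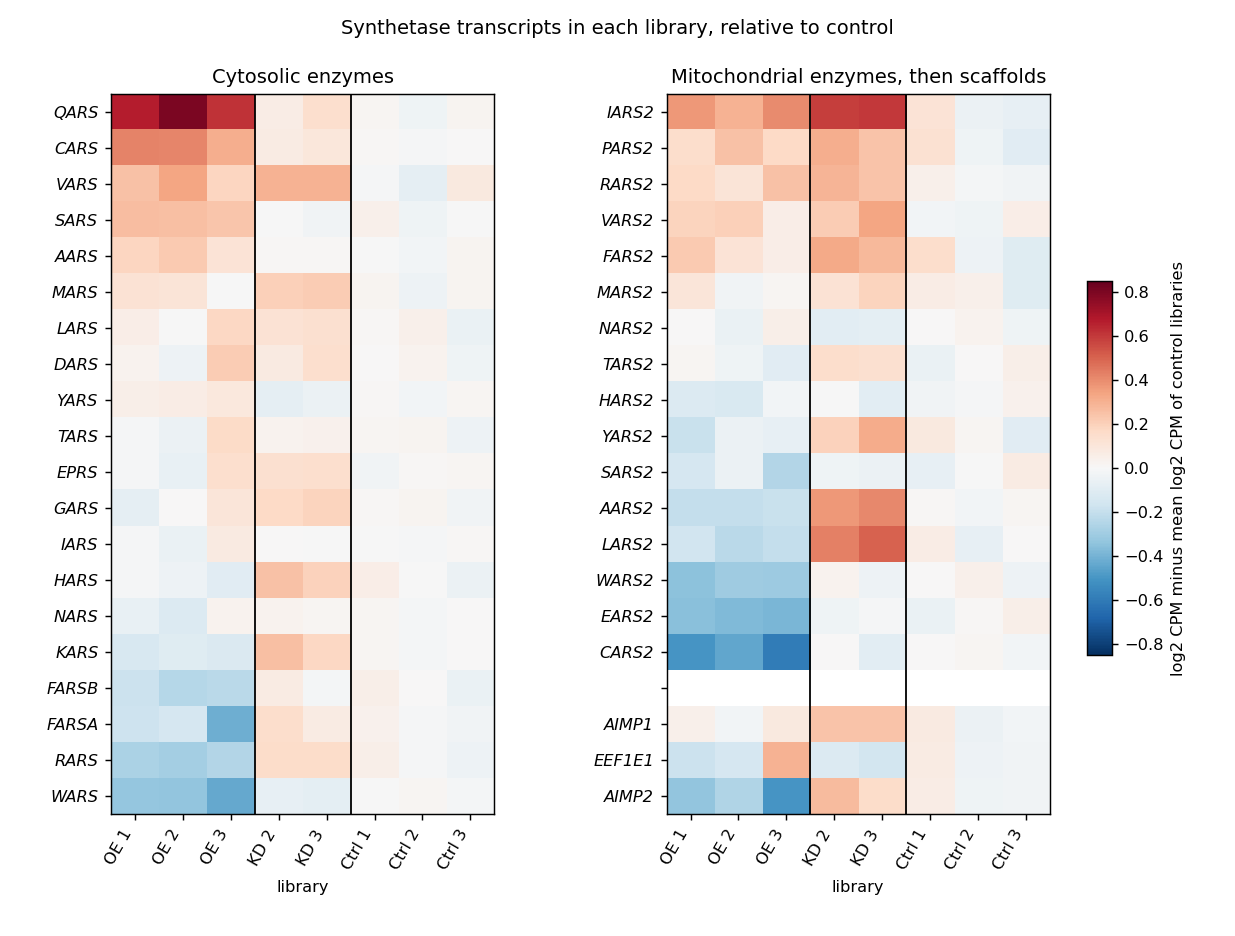
Log2 CPM of each library minus the mean log2 CPM of the control libraries, for cytosolic enzymes (left) and for mitochondrial enzymes and scaffolds (right), with overexpression (OE), knockdown (KD) and control (Ctrl) libraries as columns and genes sorted by the overexpression change. QARS is the deepest red of the cytosolic genes in the overexpression libraries, and IARS2, LARS2 and AARS2 are the deepest red of the mitochondrial genes in the knockdown libraries.

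QARS, a member of the multisynthetase complex, rose furthest. It had 149.6, 164 and 144 CPM in the overexpression libraries, 98.3 and 104 CPM in the knockdown libraries and 95.0, 91.8 and 95.6 CPM in the control libraries. All 3 overexpression libraries lay far above the other 5, which were close to each other. The log2 fold change against control was 0.70 ± 0.05 (adjusted p = 4.34e-09), or 1.62-fold. CARS, a free cytosolic enzyme, had 93.0, 92.5 and 86.0 CPM in the overexpression libraries, 72.9 and 74.1 CPM in the knockdown libraries and 69.8, 68.9 and 69.6 CPM in the control libraries. The overexpression libraries again stood above all others, and the log2 fold change was 0.39 ± 0.05 (adjusted p = 3.93e-06). SARS, which also charges the tRNA used for selenocysteine, had 343, 342 and 337 CPM in the overexpression libraries, 286 and 281 CPM in the knockdown libraries and 295, 279 and 285 CPM in the control libraries. No overexpression library overlapped with another group, and the log2 fold change was 0.25 ± 0.04 (adjusted p = 7.37e-05). VARS, known to associate with elongation factor 1, had 121, 128 and 115 CPM in the overexpression libraries, 124 and 124 CPM in the knockdown libraries and 101, 96.4 and 107 CPM in the control libraries. Here the control libraries were the low ones, below all libraries of both treatments, with log2 fold changes of 0.26 ± 0.05 with overexpression (adjusted p = 0.000457) and 0.29 ± 0.06 with knockdown (adjusted p = 0.000553). AARS rose less, by 0.18 ± 0.05 (adjusted p = 0.00339). It had 199, 205 and 190 CPM in the overexpression libraries, 177 and 177 CPM in the knockdown libraries and 175, 173 and 178 CPM in the control libraries.

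Among the cytosolic genes that fell, WARS, an enzyme known for its induction by interferon gamma, changed most. It had 136, 135 and 126.1 CPM in the overexpression libraries, 162 and 161 CPM in the knockdown libraries and 170.0, 172 and 168 CPM in the control libraries. The overexpression libraries were lowest and did not overlap with the rest, at a log2 fold change of -0.36 ± 0.05 (adjusted p = 3.06e-06). FARSA and FARSB, whose products form the active phenylalanyl enzyme together, fell by similar amounts, with log2 fold changes of -0.23 ± 0.06 (adjusted p = 0.00275) and -0.22 ± 0.05 (adjusted p = 0.000786). FARSA had 127, 131 and 108 CPM in the overexpression libraries, against 148, 143 and 141 CPM in the control libraries. Overexpression library 3 was the lowest of all 8. RARS fell by 0.27 (adjusted p = 6.88e-05) and KARS by 0.12 (adjusted p = 0.038). The KARS call was lost without each of 5 libraries, all 3 controls, overexpression replicate 1 and knockdown replicate 3, with an adjusted p of up to 0.15. The other 10 cytosolic genes, among them IARS, TARS, LARS, YARS and EPRS, lay between -0.05 and 0.08 with adjusted p of 0.16 or more. IARS, the gene with the highest CPM of all members, had 623, 605 and 662 CPM in the overexpression libraries, 629 and 627 CPM in the knockdown libraries and 626, 625 and 634 CPM in the control libraries, with the groups overlapping throughout. LARS, the leucyl enzyme also known as a leucine sensor for mTORC1, had 417 ± 26.7 CPM in overexpression libraries, 432 ± 3.65 CPM in knockdown libraries and 395 ± 13.9 CPM in control libraries (mean ± SD, n = 3, 2 and 3).

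The largest fall of any member was in CARS2, the mitochondrial cysteinyl enzyme. It had 30.6, 31.8 and 28.7 CPM in the overexpression libraries, 43.3 and 40.8 CPM in the knockdown libraries and 43.5, 43.8 and 42.6 CPM in the control libraries. The overexpression libraries lay far below both other groups, which overlapped, and the log2 fold change was -0.51 ± 0.06 (adjusted p = 1.53e-06). EARS2, which charges the mitochondrial glutamate tRNA and also loads glutamate onto the glutamine tRNA for later conversion, had 59.2, 58.5 and 58.0 CPM in the overexpression libraries, 74.0 and 75.4 CPM in the knockdown libraries and 72.8, 76.4 and 78.5 CPM in the control libraries. It was lower in every overexpression library than in any other, at -0.37 ± 0.05 (adjusted p = 7.48e-06). WARS2, the mitochondrial tryptophanyl enzyme, had 38.7, 39.9 and 39.7 CPM in the overexpression libraries, 50.3 and 47.8 CPM in the knockdown libraries and 49.4, 50.7 and 47.8 CPM in the control libraries. Its overexpression libraries were again the lowest 3, at -0.32 ± 0.06 (adjusted p = 9.82e-05). The exons of EARS2 and WARS overlap exons of UBFD1 and WDR25 on the opposite strand over 8.15% and 6.41% of their length, so a part of their counts is uncertain in strand. LARS2 and AARS2 fell by smaller amounts and are described with the genes that rose with knockdown. The 8 mitochondrial genes not called with overexpression lay between -0.13 for the seryl enzyme SARS2 (adjusted p = 0.097) and 0.18 for PARS2 (adjusted p = 0.0832).

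Of the 3 scaffolds of the multisynthetase complex, AIMP2 was the one called with overexpression. It had 51.9, 55.1 and 46.4 CPM in the overexpression libraries, 79.0 and 73.3 CPM in the knockdown libraries and 68.5, 64.1 and 64.3 CPM in the control libraries. The overexpression libraries were lowest and the knockdown libraries highest, without overlap. The log2 fold change was -0.35 ± 0.06 with overexpression (adjusted p = 9.93e-05) and 0.22 ± 0.07 with knockdown (adjusted p = 0.014). The knockdown call was lost without knockdown replicate 2 (adjusted p = 0.237) and without control replicate 2 or 3. Exons of AIMP2 overlap those of EIF2AK1, a stress kinase gene on the opposite strand, over 38.7% of their length. EIF2AK1 itself had log2 fold changes of -0.17 with overexpression (adjusted p = 0.00264) and -0.09 with knockdown (adjusted p = 0.138). AIMP1, a scaffold whose fragment is also a secreted cytokine, had 90.0, 85.7 and 92.6 CPM in the overexpression libraries, 103 and 103 CPM in the knockdown libraries and 92.0, 84.2 and 86.0 CPM in the control libraries. Its knockdown libraries were the highest and the other groups overlapped, with a log2 fold change of 0.03 ± 0.05 with overexpression (adjusted p = 0.664) and 0.24 ± 0.06 with knockdown (adjusted p = 0.00225). Exons of AIMP1 overlap those of TBCK on the opposite strand over 11.7% of their length. EEF1E1 had 32.0, 32.9 and 44.6 CPM in the overexpression libraries, 33.5 and 32.7 CPM in the knockdown libraries and 38.2, 35.4 and 35.6 CPM in the control libraries. Overexpression library 3 stood above all others, and the gene was called in neither comparison (log2 fold changes -0.02 ± 0.09 and -0.14 ± 0.10, adjusted p = 0.849 and 0.287).

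The synthetase genes that passed the test with knockdown were all higher, while 21 of the 39 did not pass it and 11 had a log2 fold change below 0. Of the 39 genes 18 rose, which is 46.2% of them, against 19.9% of all genes tested. None fell at the threshold by edgeR, DESeq2 or limma-voom, nor at an unadjusted p under 0.05 (0 of 39 each), whereas 19.1% of all genes fell. The median log2 fold change was 0.13 over the 39 genes and 0.00 over all genes tested. In 25 of the 39 genes both knockdown libraries lay above every control library and in 4 below, against 32.5% and 31.1% of all genes. DESeq2 called 14 of the 39 higher. The count is sensitive to single libraries, at 9 genes without knockdown replicate 2 and 10 genes without control replicate 3. Of the 18 calls 8 held whichever library was left out, those of IARS2, LARS2, AARS2, VARS, VARS2, RARS2, AIMP1 and MARS.

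Of the mitochondrial enzymes 9 of 16 (56.2%) rose with knockdown, against 19.9% of all genes, with a median log2 fold change of 0.20. Without control replicate 3 the count was 5. IARS2, the mitochondrial isoleucyl enzyme, led. It had 213, 203 and 218 CPM in the overexpression libraries, 248 and 249 CPM in the knockdown libraries and 179, 159 and 157 CPM in the control libraries. The control libraries were lowest, the overexpression libraries intermediate and the knockdown libraries highest, without overlap. The log2 fold change was 0.59 ± 0.06 with knockdown (adjusted p = 1.36e-07) and 0.35 ± 0.05 with overexpression (adjusted p = 1.5e-05). RARS2 and VARS2 also rose with both treatments. RARS2 had 69.9, 66.8 and 73.9 CPM in the overexpression libraries, 75.8 and 73.5 CPM in the knockdown libraries and 64.1, 61.3 and 60.8 CPM in the control libraries, with log2 fold changes of 0.17 ± 0.05 with overexpression (adjusted p = 0.0126) and 0.27 ± 0.06 with knockdown (adjusted p = 0.00134). VARS2 had 81.5, 82.4 and 74.5 CPM in the overexpression libraries, 83.0 and 90.4 CPM in the knockdown libraries and 70.6, 69.8 and 74.5 CPM in the control libraries, with log2 fold changes of 0.16 ± 0.06 (adjusted p = 0.0272) and 0.27 ± 0.06 (adjusted p = 0.00146). The overexpression calls of RARS2 and VARS2 were the weak ones. RARS2 lost its call without control replicate 2 or 3 (adjusted p up to 0.0568). VARS2 lost its call without overexpression replicate 1 or 2 or control replicate 1 or 2 (adjusted p up to 0.116).

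FARS2, the mitochondrial phenylalanyl enzyme and the member with the lowest CPM, had 13.7, 12.8 and 12.3 CPM in the overexpression libraries, 14.7 and 14.2 CPM in the knockdown libraries and 13.0, 11.4 and 11.0 CPM in the control libraries. Knockdown libraries lay above the control libraries, at a log2 fold change of 0.29 ± 0.10 (adjusted p = 0.0218), and the call was lost without knockdown replicate 2 (adjusted p = 0.171) or control replicate 2 or 3. The next 3 mitochondrial calls rested on single libraries in the same way. PARS2 rose by 0.27 ± 0.09 (adjusted p = 0.0215) and lost its call without the same libraries. The tyrosyl enzyme YARS2 rose by 0.24 ± 0.07 (adjusted p = 0.0117) and the threonyl enzyme TARS2 by 0.15 ± 0.06 (adjusted p = 0.0437). YARS2 lost its call without knockdown replicate 3 or control replicate 3 (adjusted p up to 0.123). The TARS2 call was lost without any control or knockdown library, or overexpression replicate 1 (adjusted p up to 0.226). The mitochondrial genes not called with knockdown were CARS2, EARS2, HARS2, MARS2, NARS2, SARS2 and WARS2, between -0.09 and 0.15. Of those 7, CARS2, EARS2 and WARS2 were among the genes that fell with overexpression.

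Of the 20 cytosolic genes 7 (35.0%) rose with knockdown, against 19.9% of all genes, with a median of 0.11. Without knockdown replicate 2 the count was 2, and without knockdown replicate 3 or control replicate 3 it was 4. After VARS the changes were small and of similar size, 0.22 ± 0.05 for HARS, 0.22 ± 0.05 for KARS (adjusted p = 0.00189), 0.21 ± 0.05 for the methionyl enzyme MARS (adjusted p = 0.0031) and 0.18 ± 0.05 for the glycyl enzyme GARS (adjusted p = 0.0116). RARS rose by 0.15 ± 0.05 (adjusted p = 0.0198) and EPRS, the fused glutamyl and prolyl enzyme, by 0.14 ± 0.05 (adjusted p = 0.048). Of the 7 calls, those of VARS and MARS held whichever library was left out. KARS lost its call without knockdown replicate 2 (adjusted p = 0.0732). Without either knockdown library GARS and RARS lost theirs, GARS also without control replicate 3 (adjusted p up to 0.0822) and RARS also without control replicate 2 or 3 (adjusted p up to 0.123). EPRS lost its call without any control or knockdown library, or overexpression replicate 1 (adjusted p up to 0.197). The exons of MARS overlap those of DDIT3, a stress gene on the opposite strand with a knockdown log2 fold change of 0.38 (adjusted p = 0.000215), over 2.13% of their length. QARS, the gene that rose furthest with overexpression, was not called here and had a knockdown log2 fold change of 0.10 ± 0.06 (adjusted p = 0.194). The remaining 12 cytosolic genes lay between -0.08 for WARS and 0.13 for LARS (adjusted p = 0.0634).

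**Figure D3:**
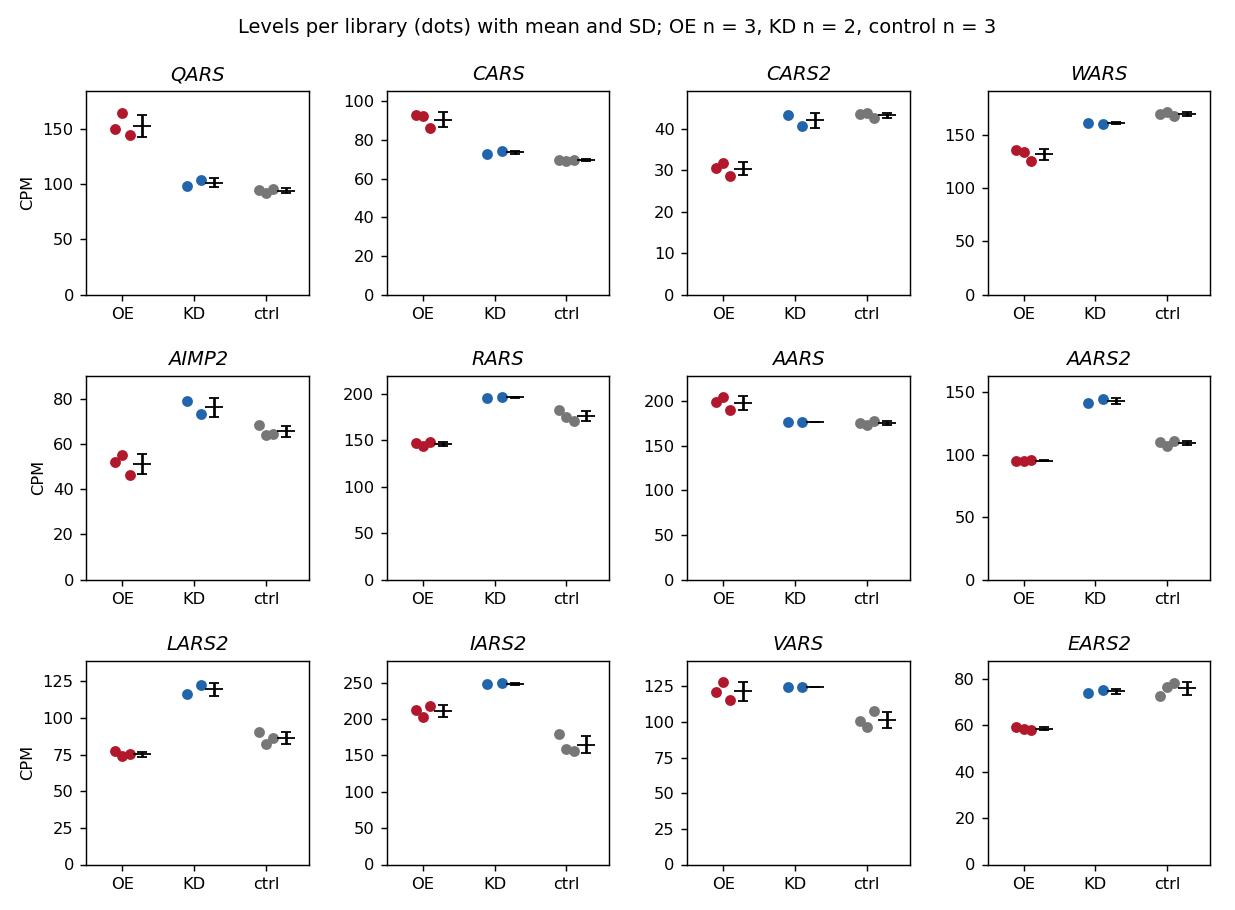
CPM of 12 members in each library (dots) with the mean and SD of the group (bars), for overexpression (OE, n = 3), knockdown (KD, n = 2) and control (ctrl, n = 3). QARS and CARS are highest with overexpression, CARS2 is lowest there, IARS2 is highest with knockdown, and AARS2, LARS2, RARS and AIMP2 are lowest with overexpression and highest with knockdown.

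Both comparisons with control use the same 3 control libraries, so their values are set side by side only as values. Fallen with overexpression and risen with knockdown were 5 genes, KARS, RARS, AARS2, LARS2 and AIMP2, which is 12.8% of the 39 against 3.91% of all genes tested. Without knockdown replicate 2, or control replicate 2 or 3, AARS2 and LARS2 alone remained (5.13%), and without knockdown replicate 3 these and AIMP2 (7.69%). The reverse, a rise with overexpression and a fall with knockdown, was seen in 3.62% of all genes and, as no member fell with knockdown, in 0 of the 39. Higher with both treatments were 4 genes, VARS, IARS2, RARS2 and VARS2, against 7.30% of all genes, and IARS2 and VARS alone did so without control replicate 2. Called with neither were 11 genes (28.2%), against 32.4% of all genes, and 17 without control replicate 3 or knockdown replicate 2. Without overexpression replicate 3 they were 7. LARS2, the mitochondrial leucyl enzyme, had 77.2, 73.8 and 75.2 CPM in the overexpression libraries, 116 and 123 CPM in the knockdown libraries and 90.4, 82.5 and 86.6 CPM in the control libraries. AARS2, the mitochondrial alanyl enzyme, had 95.1, 94.9 and 95.8 CPM in the overexpression libraries, 141 and 145 CPM in the knockdown libraries and 109.9, 107 and 111 CPM in the control libraries. In both genes the 3 groups were fully separate, with overexpression lowest and knockdown highest. The cytosolic arginyl gene RARS had 146, 144 and 148 CPM in the overexpression libraries, 196 and 196 CPM in the knockdown libraries and 182, 175 and 171 CPM in the control libraries. The lysyl gene KARS had 136, 139 and 137 CPM in the overexpression libraries, 178 and 169 CPM in the knockdown libraries and 151, 147 and 149 CPM in the control libraries. The order of the groups was the same in these. Against control, the log2 fold change of LARS2 was -0.20 ± 0.05 with overexpression (adjusted p = 0.0038) and 0.46 ± 0.06 with knockdown (adjusted p = 2.28e-06). That of AARS2 was -0.20 ± 0.05 with overexpression (adjusted p = 0.00168) and 0.39 ± 0.05 with knockdown (adjusted p = 6.28e-06). The knockdown values of LARS2 and AARS2 were larger than those of RARS and KARS, and 6.10% of the exon length of AARS2 overlaps TMEM151B on the opposite strand.

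The direct comparison of overexpression with knockdown uses the control libraries only for the shared estimate of spread, TMM scaling and the low-count filter. In it 5 of the 39 genes were higher (AARS, CARS, QARS, SARS and YARS) and 18 lower with overexpression, against 29.3% higher and 28.1% lower of all genes tested. With either knockdown library left out, 3 were higher. The median log2 difference was -0.12 over the 39 genes and 0.02 over all genes. LARS2 differed most, at -0.66 ± 0.06 (adjusted p = 9.91e-09), followed by QARS at 0.60 ± 0.06 (adjusted p = 7.41e-08), AARS2 at -0.59 ± 0.05 (adjusted p = 1.32e-08) and AIMP2 at -0.57 ± 0.07 (adjusted p = 5.84e-07). RARS stood at -0.42 ± 0.05 (adjusted p = 6.56e-07) and KARS at -0.34 ± 0.05 (adjusted p = 1.09e-05). IARS2, although higher than control with both treatments, was lower with overexpression than with knockdown, at -0.24 ± 0.06 (adjusted p = 0.00147). VARS did not pass the test there, at -0.03 ± 0.06 (adjusted p = 0.652). Of the 16 mitochondrial genes 8 were lower and none higher by edgeR, DESeq2 or limma-voom, nor at an unadjusted p under 0.05 (0 of 16). With library totals in place of TMM scaling, 7 of them were lower and 1 higher. Left-out libraries ended the direct calls of AARS and YARS (without either knockdown library, adjusted p up to 0.0681 and 0.152), TARS2 (0.0762 without knockdown replicate 2), GARS (up to 0.0816) and MARS (up to 0.14).

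The mitochondrial enzymes as a sum stood highest with knockdown. The 16 mitochondrial genes summed to 1007, 988 and 999.97 CPM in the overexpression libraries, 1201 and 1213 CPM in the knockdown libraries and 1027, 1001 and 1006 CPM in the control libraries. Both knockdown libraries exceeded all others, while overexpression and control overlapped. IARS2 gave 249 ± 1.08 CPM of this sum with knockdown and 165 ± 12.1 CPM in control libraries (mean ± SD, n = 2 and 3). The 20 cytosolic genes summed to 4807, 4766 and 4968 CPM in the overexpression libraries, 4989 and 4981 CPM in the knockdown libraries and 4769.5, 4719.9 and 4695 CPM in the control libraries. The ratio of the cytosolic to the mitochondrial sum was 4.77, 4.82 and 4.97 with overexpression, 4.15 and 4.11 with knockdown and 4.65, 4.72 and 4.67 in control libraries. The 3 groups did not overlap in this ratio, which is highest with overexpression and lowest with knockdown. The differences are given as a description, without a test.

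**Figure D4:**
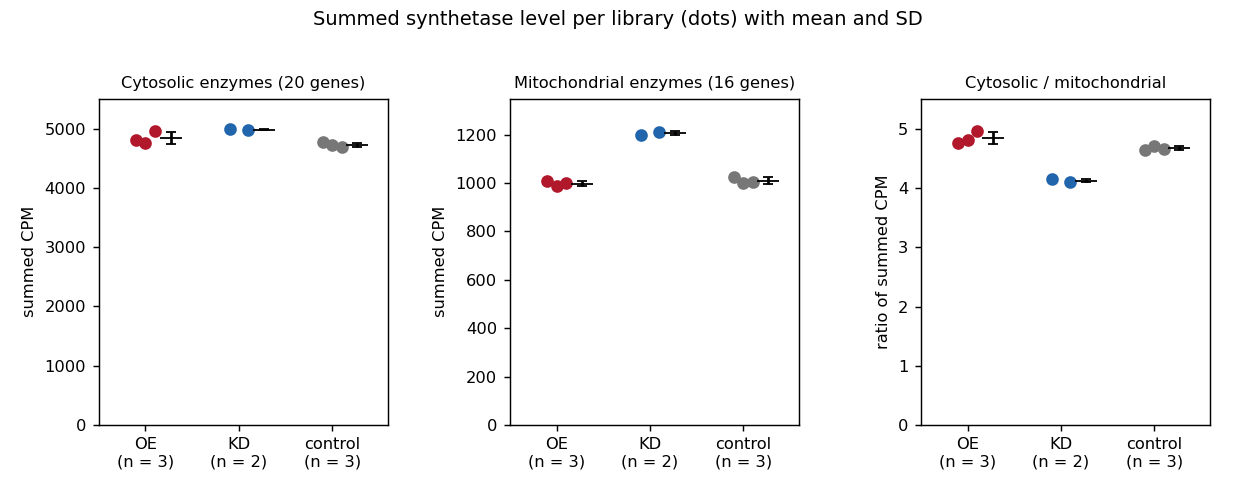
Summed CPM of the cytosolic enzymes, of the mitochondrial enzymes and the ratio of both sums in each library, for overexpression (OE), knockdown (KD) and control libraries (dots), with the mean and SD of each group beside them. The mitochondrial sum is highest in the 2 knockdown libraries, and the ratio lies at 4.77 to 4.97 with overexpression, at 4.11 to 4.15 with knockdown and at 4.65 to 4.72 in control libraries.

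Gene by gene, the contrast was taken as the cytosolic minus the mitochondrial median. With overexpression the median log2 fold change was 0.03 over the cytosolic genes (5 higher, 5 lower of 20) and -0.06 over the mitochondrial genes (3 higher, or 1 without control replicate 2, and 5 lower of 16), a difference of 0.09 that became 0.03 without overexpression replicate 3. With knockdown the medians were 0.11 and 0.20, a difference of -0.09. In the direct comparison of overexpression with knockdown they were -0.06 and -0.17, a difference of 0.11, or 0.03 without overexpression replicate 3.

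Pairs of enzymes for the same amino acid can be compared within a library, since both genes share its depth. With overexpression the mitochondrial log2 fold change was below the cytosolic one in 9 of 13 pairs (median difference -0.07). With knockdown the pairs were about evenly split, as it was above in 7 of 13 and below in 6 (median difference 0.07). The knockdown differences ran from -0.26 for histidine to 0.59 for isoleucine. The cysteine pair parted most with overexpression. Its ratio of mitochondrial to cytosolic CPM, CARS2 to CARS, was 0.329, 0.344 and 0.334 in the overexpression libraries, 0.594 and 0.551 in the knockdown libraries and 0.623, 0.636 and 0.612 in the control libraries. The overexpression ratios were far below those of both other groups, as CARS rose and CARS2 fell. For alanine, the ratio of AARS2 to AARS was 0.477, 0.463 and 0.505 in the overexpression libraries, 0.799 and 0.821 in the knockdown libraries and 0.627, 0.621 and 0.622 in the control libraries. It was low with overexpression and high with knockdown, without overlap. For arginine the genes moved the other way with overexpression, RARS down and RARS2 up. The ratio of RARS2 to RARS was 0.478, 0.465 and 0.498 in the overexpression libraries, 0.388 and 0.374 in the knockdown libraries and 0.351, 0.351 and 0.355 in the control libraries, highest with overexpression. Both tryptophanyl genes fell with overexpression, WARS and WARS2 at -0.36 and -0.32, and both valyl genes rose with both treatments.

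**Figure D5:**
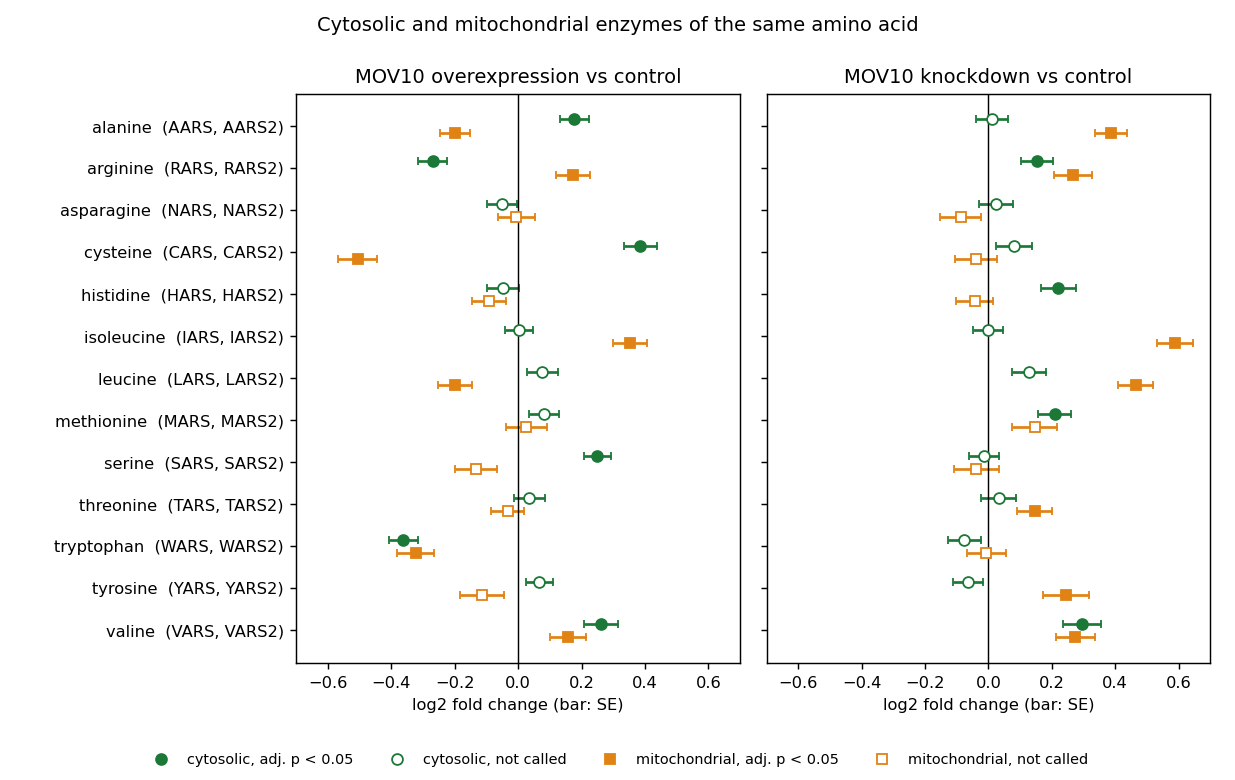
Log2 fold change against control, with its SE, for both enzymes of the 13 amino acids that have a cytosolic and a mitochondrial gene in the list, with overexpression (left) and knockdown (right). Filled symbols mark an adjusted p under 0.05. With overexpression both genes of the alanine, arginine and cysteine pairs are called, on opposite sides of 0. The leucine, serine, threonine and tyrosine pairs also lie on opposite sides of 0, but without both genes called.

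The 8 enzymes of the multisynthetase complex and the 12 free cytosolic genes were also counted apart. With overexpression 1 of the 8 rose (QARS) and 2 fell (KARS and RARS), and 4 of the 12 rose and 3 fell, against 25.2% and 24.1% of all genes. The count of complex enzymes that fell was 1 without control replicate 1, 2 or 3, overexpression replicate 1 or knockdown replicate 3, and the count that rose was 2 without overexpression replicate 2 or 3. With knockdown 4 of 8 and 3 of 12 (25.0%) rose, against 19.9% of all genes, so the free enzymes were near that share. Both counts were 1 without knockdown replicate 2, and that of the complex enzymes was 2 without knockdown replicate 3 or control replicate 2 or 3. By structural class of the enzyme, 6 of 19 class I genes rose and 6 fell with overexpression, and 2 of 17 class II genes rose and 4 fell. These are 31.6% and 31.6% of class I and 11.8% and 23.5% of class II. With knockdown 9 of 19 (47.4%) and 7 of 17 (41.2%) rose. The 9 include the fused enzyme gene EPRS, which was placed in class I by its glutamyl domain alone. The class I count ran from 6, without knockdown replicate 3 or control replicate 3, to 10, without overexpression replicate 2 or 3. The class II count was 1 without knockdown replicate 2, 4 without control replicate 2 and 3 without control replicate 3.

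The 13 cytosolic genes known as ATF4 targets and the other 7 were counted apart as well, and the difference between them was not tested. Of the 13, 4 rose with overexpression (AARS, CARS, SARS and VARS) and 1 fell (WARS), which is 30.8% and 7.69%. Their median log2 fold change was 0.07. Of the other 7, 1 rose with overexpression (QARS) and 4 fell (FARSA, FARSB, KARS and RARS), which is 14.3% and 57.1%, with a median of -0.12. The count of 4 was 3 without control replicate 1, 2 or 3, overexpression replicate 1 or knockdown replicate 3. Of all genes 25.2% rose and 24.1% fell. With knockdown 4 of 13 (30.8%) and 3 of 7 (42.9%) rose, against 19.9% of all genes, with medians of 0.03 and 0.11. Without knockdown replicate 2 these counts were 2 and 0, without knockdown replicate 3 or control replicate 3 the ATF4 count was 2, and without overexpression replicate 3 the other count was 5. The TGATGNAAN letters lay in 7 of the 10 ATF4 target genes with a promoter window and in 0 of the 6 others. Of the 7 with the letters, AARS and CARS rose with overexpression, GARS and MARS rose with knockdown, and IARS, NARS and TARS were called in neither comparison. SARS rose without these letters in its window.

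Genes of the amino acid response itself moved with both treatments. Of 15 regulators and markers 13 rose with overexpression (86.7%, against 25.2% of all genes) and 1 fell, with a median log2 fold change of 0.44. With knockdown 5 rose (33.3%, against 19.9% of all genes) and 7 fell (46.7%, against 19.1%), with a median of -0.03. The ATF4 gene was not called with overexpression, at 0.04 ± 0.05 (adjusted p = 0.47). It rose with knockdown, at 0.20 ± 0.05 (adjusted p = 0.00473). The glutathione-degrading enzyme gene CHAC1 stood at 0.97 ± 0.10 with overexpression (adjusted p = 1.13e-07) and -0.42 ± 0.12 with knockdown (adjusted p = 0.00763). The asparagine synthetase gene ASNS stood at 0.55 ± 0.06 (adjusted p = 4.55e-07) and -0.44 ± 0.07 (adjusted p = 5.4e-05). Overexpression exceeded knockdown in the direct comparison by 0.99 ± 0.07 for ASNS (adjusted p = 1.18e-09), 1.39 ± 0.11 for CHAC1 (adjusted p = 3.94e-09) and 0.97 ± 0.08 for the ATF4 inhibitor gene TRIB3 (adjusted p = 6.51e-09). The stress factor ATF3 rose with both treatments, at 0.73 ± 0.05 (adjusted p = 3.94e-10) and 0.63 ± 0.05 (adjusted p = 1.33e-08). Whether these genes bear on the synthetase values was not tested.

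Genes that act beside the synthetases were counted in the same way, and these counts stand against 25.2% higher and 24.1% lower with overexpression and 19.9% higher and 19.1% lower with knockdown over all genes. Of 4 genes for mitochondrial transamidation and formylation, which complete glutaminyl- and formylmethionyl-tRNA, 3 (75.0%) fell with overexpression. The amidotransferase subunit genes QRSL1 and PET112 stood at -0.28 ± 0.06 (adjusted p = 0.000317) and -0.27 ± 0.08 (adjusted p = 0.00687), and both act on the product of EARS2, which fell as well. With knockdown PET112 alone of the 4 rose, at 0.22 ± 0.08 (adjusted p = 0.0367). Of 19 tRNA processing and export genes 1 rose (5.26%) and 8 fell (42.1%) with overexpression, and 6 rose (31.6%) and 1 fell (5.26%) with knockdown. XPO5 had the smallest adjusted p of these with overexpression (-0.38 ± 0.04, adjusted p = 9.67e-07). It was called higher with knockdown (0.14 ± 0.05, adjusted p = 0.0325). Next by adjusted p with overexpression were HSD17B10, a subunit gene of mitochondrial RNase P (-0.49 ± 0.06, adjusted p = 1.47e-06), and the RNase P subunit gene RPP40 (-0.59 ± 0.08, adjusted p = 4.24e-06). Of 7 elongation factor genes linked to the delivery of aminoacyl-tRNA to the ribosome, 1 rose (14.3%) and 3 fell (42.9%) with overexpression. With knockdown 2 of them rose (28.6%). EEF1A2, a form of elongation factor 1 alpha, was the one that rose with overexpression, at 0.79 ± 0.06 (adjusted p = 6.93e-09). Of 6 editing and synthetase-like genes 3 rose with overexpression and 2 (33.3%) with knockdown, with the alanyl editing gene AARSD1 in both counts (0.17 ± 0.06, adjusted p = 0.0232, and 0.34 ± 0.06, adjusted p = 0.000317). Of 8 genes of the MYC list 2 rose (25.0%) and 4 fell with overexpression, with MYC itself at 0.55 ± 0.05 (adjusted p = 1.3e-07), and 2 rose (25.0%) with knockdown. The shares of the MYC list that rose were near those of all genes, whereas the share that fell with overexpression was above the 24.1% of all genes. Among the 4 that fell were ODC1 at -0.61 ± 0.04 (adjusted p = 1.78e-09) and NCL at -0.27 ± 0.04 (adjusted p = 2.03e-05).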

How the data were processed

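RNA from 8 libraries of HEK293F cells was analysed from the table of counts deposited by the authors, whole reads per gene symbol, not normalized. The submitters' processing notes name HTSeq 0.5.3p9, TopHat2 2.0.8, SAMtools 0.1.18, Trimmomatic 0.22, CASAVA 1.8.2 and edgeR, and the build hg19. Libraries were made with a stranded TruSeq kit, per the labels' protocols, and the strand setting of the counting is not given in the sources used here. Groups and replicate numbers came from the titles.

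Of 23368 symbols, 3620 had no read, and 15254 passed edgeR's filterByExpr (minimum count 10, minimum total 15). All 8 libraries entered a single fit with a mean per group (R 4.3.3, edgeR 4.0.16, TMM factors 0.961 to 1.03, two-sided quasi-likelihood F test). P-values were adjusted by Benjamini-Hochberg over all genes tested, and an adjusted p under 0.05 was a call. Log2 fold changes carry their SE from this fit, and CPM use TMM-scaled library sizes. The fit was tested on simulated data. A chi-square per gene of 1.83 to 7.66 between libraries of a group showed no pair within sampling noise. Each library was counted as a replicate, although this scatter does not show that the libraries came from separate cultures.

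The members and lists were chosen with earlier results of these data known, so no pattern here is independent of those results. Values in every library are given, by rule, for the 5 higher and 5 lower members with the largest change in each comparison with control, for members called in opposite directions by both treatments, for pairs called in opposite directions, and for the members with the highest and lowest CPM. A few others (HARS, HARS2, VARS2, AIMP1, EEF1E1 and FARSA) were added after their values were seen. Of each other list up to 3 genes with the smallest adjusted p in a comparison are named. ATF4 was named as well, after its values were seen. Exon lengths and overlaps came from GENCODE 29, whose build differs from that of the counts, and promoters from RefSeq GRCh38.p14. Alternatives were DESeq2 1.42.0, limma-voom (limma 3.58.1), other scalings and filters, a replicate block, a fold of 1.2, a stricter adjusted p (0.01) and leaving out each library.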

Additional observations from a re-analysis of the deposited data

How the results depend on the processing

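No called member changed sign under any alternative run. Counts over all 39 members kept within 1.5 times of the reported ones except under stricter thresholds and without some libraries. Testing against a fold of 1.2 left 2 higher and 3 lower of 39 with overexpression, 3 higher with knockdown, and 1 higher and 5 lower between overexpression and knockdown. At an adjusted p under 0.01, 10 rose with knockdown. Leaving out each library gave 6 to 9 higher and 10 to 13 lower with overexpression, 9 to 21 higher and 0 lower with knockdown, and 3 to 5 higher and 15 to 22 lower between both treatments. The lowest knockdown counts came without knockdown replicate 2 and without control replicate 3, where 1 fewer library also lowers power. The difference of the cytosolic and mitochondrial medians ran from 0.031 to 0.12 with overexpression, from -0.11 to -0.09 with knockdown and from 0.035 to 0.15 between both, with the lowest values without overexpression replicate 3. The cause was not tested. Library totals gave 12 higher and 10 lower with overexpression, 12 higher and 0 lower with knockdown, and 6 higher and 14 lower between both. For the cytosolic genes library totals moved the counts further, to 8 higher with overexpression (5 with TMM) and 4 higher with knockdown (7 with TMM).

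With the replicate number as a block, 8 rose and 10 fell with overexpression, 15 rose and 0 fell with knockdown, and 5 were higher and 18 lower between both. The numbers share no stated origin. Deviations of same-numbered libraries from their group means correlated at 0.01, -0.11 and -0.13 between overexpression and control and at 0.01 and 0.12 between knockdown and control, so the numbers were not taken as pairs, and not every library correlated best with its own number. At the lowest mean level of a member, 11.8 CPM for FARS2 in control libraries, the SE of the knockdown change was 0.10.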
